A study of Mus musculus with 6 samples.

Results

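The genes described here are 7 ligands of the bone morphogenetic protein (BMP) family, Gdf2, Bmp2, Bmp4, Bmp5, Bmp6, Bmp10 and Gdf10, and 2 extracellular BMP modulators, Bmper and Grem1, selected by gene symbol from the 24940 genes of the deposited table. They were measured by RNA sequencing in wild-type primary hepatic stellate cells from female mice, perisinusoidal cells of the liver that store vitamin A. The labels write the strain as C57BL6/JBomTac or C57BL/6JBomTac and give no age. After 2 days in culture the cells received 5 µM forskolin, a plant diterpene that activates adenylyl cyclase and so raises cAMP, or the same volume of the solvent DMSO, added to the medium already on the cells. Both groups were harvested 3 h later and gave 3 libraries each, replicates A, B and C. Whether the replicates came from separate isolations or animals is not given in the sources used here, so the p-values measure the spread between these libraries, which may be technical.

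BMPs are secreted dimers of the TGF-beta superfamily. They join type I and type II serine/threonine kinase receptors, which phosphorylate SMAD1, SMAD5 and SMAD9. With SMAD4 these switch on genes such as the Id genes and the inhibitory Smad genes, while secreted antagonists hold ligands away from their receptors. In the liver, stellate cells are a known source of BMP9 (encoded by Gdf2) and BMP10, which act on endothelial cells through the receptor ALK1 (Acvrl1) and its partner endoglin (Eng). BMP2 and BMP6 from sinusoidal endothelium are known to drive hepcidin expression in hepatocytes.

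Libraries held between 2770628 and 10607997 counts, and both C libraries were the shallowest of their group. A floor of 3 counts equalled 1.17 CPM (counts per 1000000 of the scaled library size) in forskolin C and 1.02 CPM in DMSO C, but at most 0.438 CPM in the other 4 libraries. This floor reflects counting alone, and PCR duplicates can make the real error larger. All 10 stellate cell markers were expressed, with a summed level of 1749 to 1802 CPM in forskolin libraries and 1610 to 1693 CPM in DMSO libraries, and 1 of them, the transcription factor gene Hand2, rose (96.5 ± 10.2 CPM with forskolin, 46.9 ± 12.6 CPM with DMSO, edgeR adjusted p = 0.0152). The 10 endothelial markers summed to 10.7 to 17.9 CPM with forskolin and 7.07 to 13.9 CPM with DMSO, and Clec4g and Tie1 had counts only in forskolin B. The 8 hepatocyte markers summed to 6.30 to 25.1 CPM with forskolin and 7.62 to 8.46 CPM with DMSO, and the 8 macrophage markers to 13.9 to 18.0 CPM with forskolin and 18.4 to 23.2 CPM with DMSO. The 5 cholangiocyte markers, with Krt7 at 0 in all libraries, summed to 9.33 to 43.3 CPM with forskolin and 12.3 to 19.6 CPM with DMSO. Of the 5 portal fibroblast and mesothelial markers, Thy1, Upk3b and Gpm6a were at 0 and Pdpn made up nearly the whole sum of 45.5 to 67.7 CPM with forskolin and 19.2 to 44.0 CPM with DMSO. The part of other cells in the results was not tested, and in bulk RNA a change in the number of cells of a type and a change in RNA per cell cannot be told apart.

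The comparison asked which of these genes differed after 3 h of adenylyl cyclase activation. Bmp2 and Gdf2 rose about 2-fold, though the Gdf2 call was lost under 6 of 18 alternative fits. No ligand or modulator was called lower, and Bmp4, with a log2 fold change of −1.33 ± 0.88, did not pass. Of the 9 genes, 8 were tested and 1, Grem1, was too low to test. Of the 8 tested, 2 rose and 6 did not pass the threshold, an adjusted p of 0.05 (Benjamini-Hochberg) in the quasi-likelihood test of edgeR. Over all 12233 tested genes, 2.8% were called, 2.22% higher and 0.572% lower. None of the other tools run (DESeq2, limma-voom with and without quality weights, the likelihood ratio test) called any of the 8 lower. The median log2 fold change was 0.50 over the 8 genes and 0.01 over all tested genes. In 3 of the 8 (Bmp2, Gdf2 and Gdf10) every forskolin library was above every DMSO library, against 10.7% of all tested genes, and in 0 every forskolin library was below, against 9.47%. In either direction the groups were apart in 20.2% of all tested genes. The 9 genes were chosen with earlier results of these data known, so setting them against all genes is description and no test of the family.

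**Figure D1:**
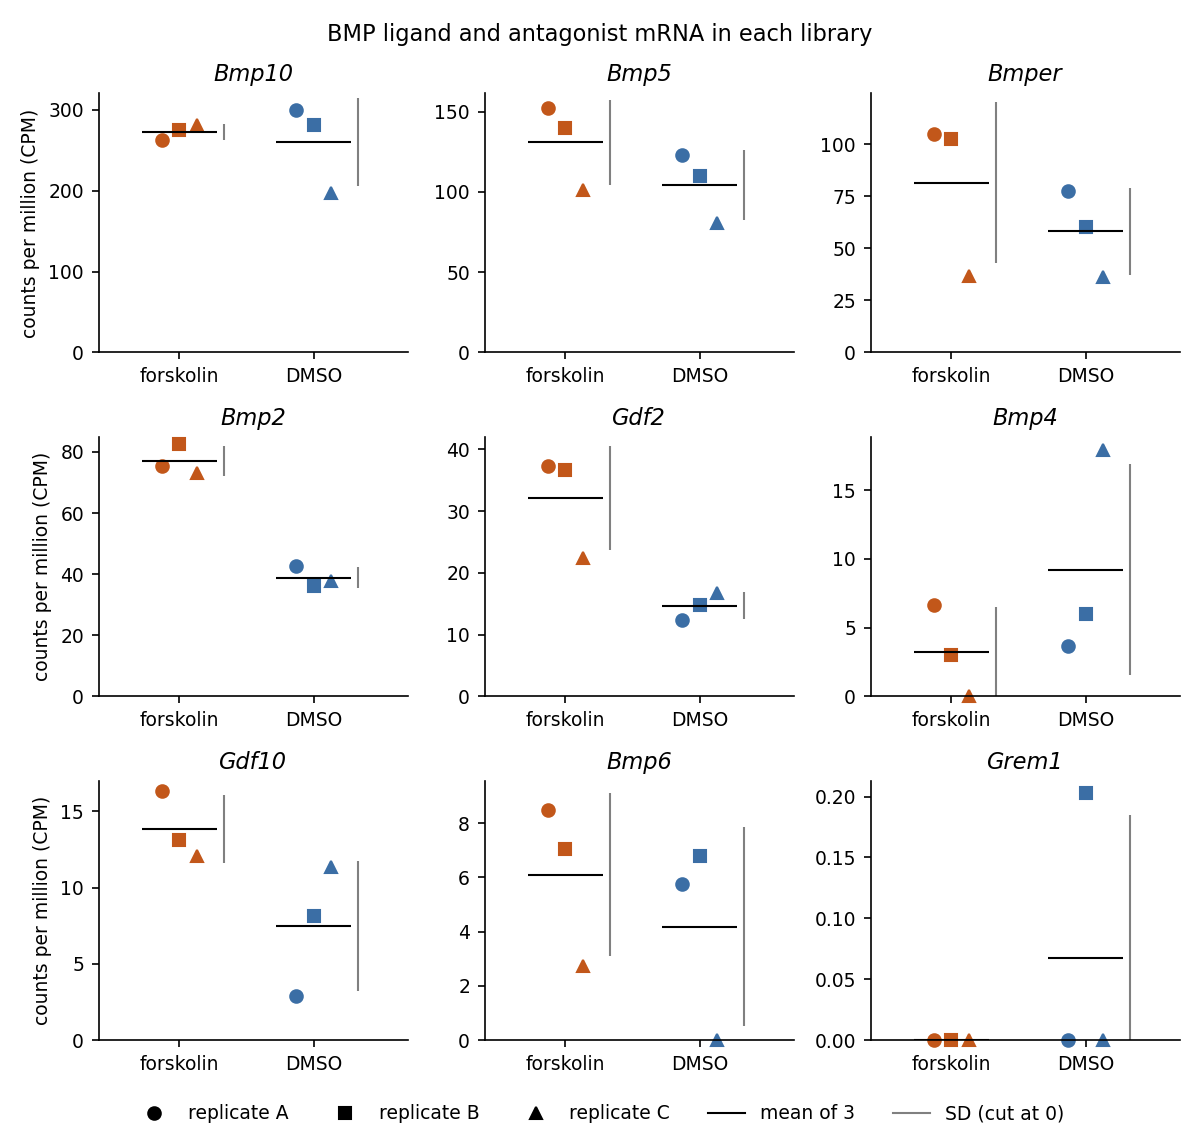
CPM of each of the 9 genes in each library, forskolin at the left and DMSO at the right of every panel; symbols give the replicate letter, horizontal lines the mean of 3 and grey lines the SD. Groups are apart for Bmp2, Gdf2 and Gdf10, and the C libraries (triangles) are the lowest of their group for Bmp5, Bmp6 and Bmper.

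Per length, the ligand mRNAs spanned a wide range, with Bmp10 far above the rest. Levels between genes are given as CPM per kilobase of the deposited exon length. Bmp10, a ligand best known from the embryonic heart that is closely related to Gdf2, stood at 198, 209 and 213 CPM per kilobase in forskolin A, B and C and at 227, 213 and 150 CPM per kilobase in DMSO A, B and C. Its level in DMSO was higher than that of 98.2% of tested genes. It was followed by Bmp5 at 34.3 ± 6.95 CPM per kilobase with forskolin and 27.3 ± 5.70 with DMSO (mean ± SD, n = 3 libraries per group). The lowest Bmp10 library lay above the highest Bmp5 library in both groups.

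Below Bmp5, most neighbours in the order of means overlapped. With forskolin the means ran Bmp2 (21.6 CPM per kilobase), Bmper (21.5), Gdf2 (10.8), Gdf10 (3.70), Bmp6 (2.04), Bmp4 (1.56) and Grem1 (0). With DMSO they ran Bmper (15.3), Bmp2 (10.9), Gdf2 (4.91), Bmp4 (4.49), Gdf10 (1.996), Bmp6 (1.40) and Grem1 (0.0413). Neighbours in that order whose libraries did not overlap in the forskolin group were Bmp10 and Bmp5, Bmp5 and Bmp2, Gdf2 and Gdf10, and Gdf10 and Bmp6. In the DMSO group they were Bmp10 and Bmp5, Bmp5 and Bmper, and Bmp2 and Gdf2. All other neighbours overlapped. Bmp2 and Bmper had nearly equal means with forskolin, and Bmp2 was above Bmper in 1 of the 3 forskolin libraries. The deposited Bmp10 length of 1321 bases is that of its RefSeq transcript, while the GENCODE M21 transcript of the gene has 4490 bases, so its level per length is that of the shorter model. The same holds for Grem1 (1635 bases deposited, 4148 in the GENCODE transcript nearest in length), Gdf10 (3736 and 5210) and Bmp6 (2987 and 3593).

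**Figure D2:**
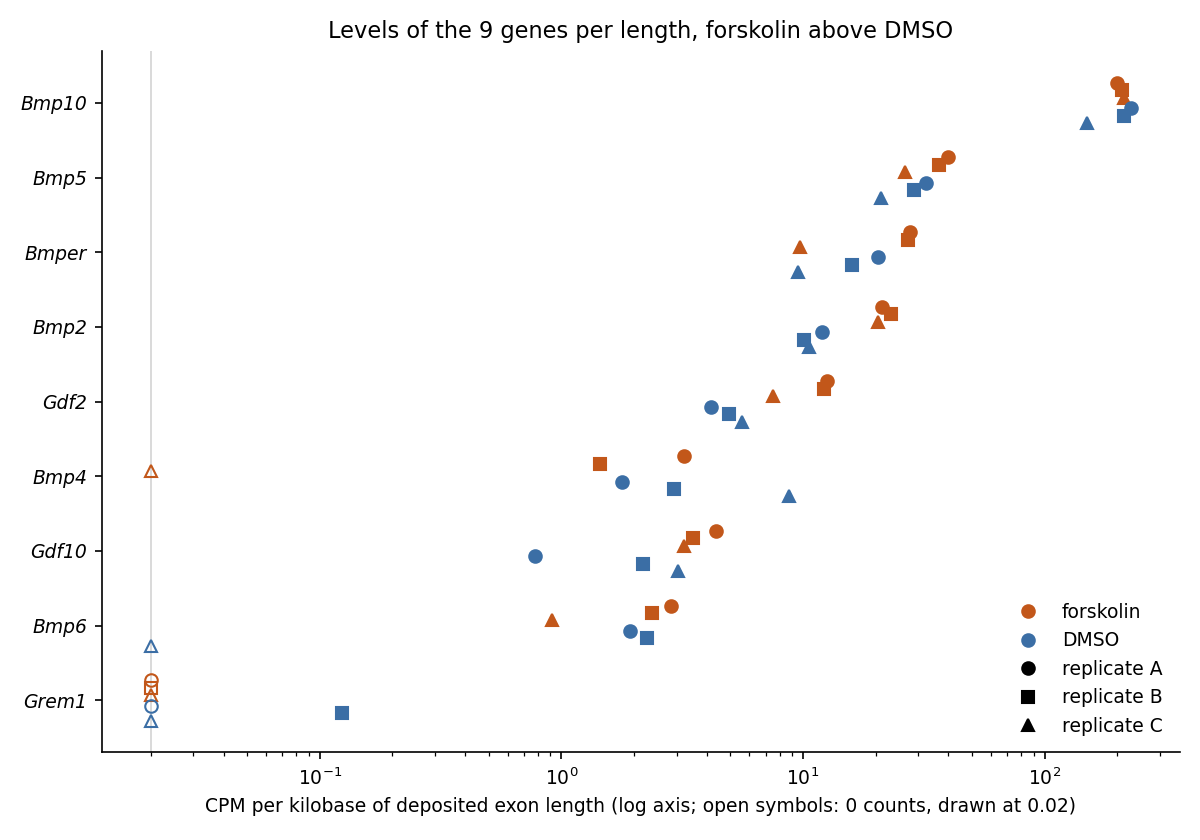
Level of each gene in each library as CPM per kilobase on a log axis, forskolin above DMSO within each gene, with symbols for the replicate letters and open symbols for libraries without a count. Bmp10 stands alone at 150 to 227 CPM per kilobase, and Grem1 has counts in 1 library only.

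As a share of the summed level of the 7 ligands per length, Bmp10 made up 70.3%, 72.5% and 78.4% in forskolin A, B and C and 81.1%, 80.6% and 75.3% in DMSO A, B and C. The groups overlapped in this share through the C libraries. Bmp2 made up 7.50%, 8.04% and 7.56% in the forskolin libraries and 4.28%, 3.82% and 5.31% in the DMSO libraries, which did not overlap. The ratio of Bmp10 to Bmp2 per length was 9.37, 9.01 and 10.4 in forskolin A, B and C, against 19.0, 21.1 and 14.2 in DMSO A, B and C. Shares of 1 sum move together by construction, so these values describe the makeup of the ligand mRNA and are not further tests.

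**Figure D3:**
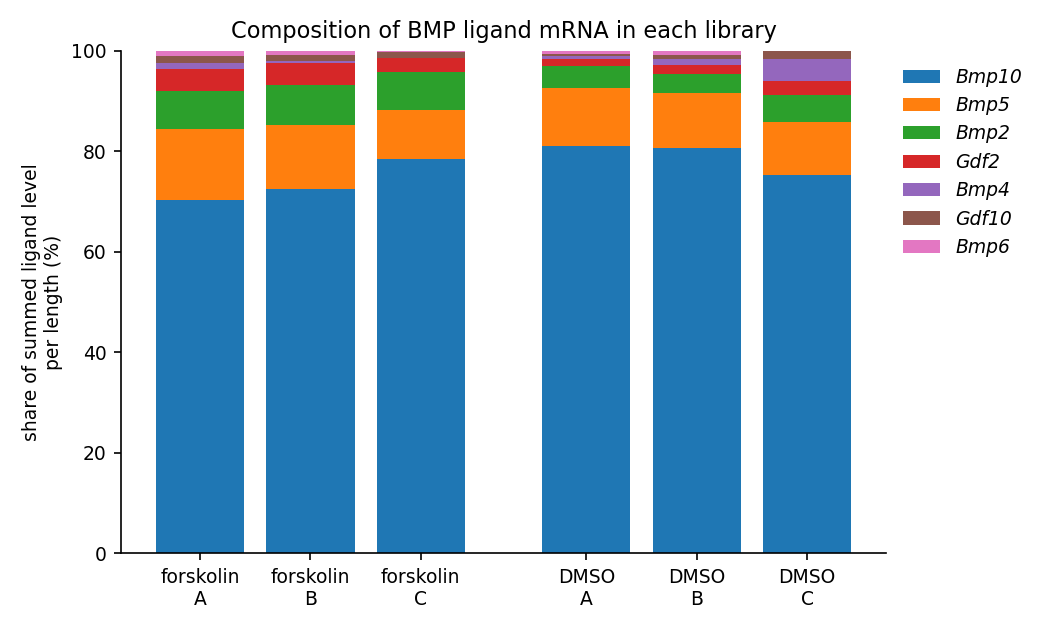
Share of each ligand in the summed ligand level per length (percent) for each library, forskolin libraries at the left and DMSO libraries at the right. Bmp10 holds 70.3% to 81.1% of the sum in the 6 libraries, and the Bmp2 segment is larger in all 3 forskolin libraries.

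Bmp2, a ligand of the bone-inducing class that in liver is best known for its part in iron regulation, rose with forskolin. The gene lies on chromosome 2 at 133552159 to 133562896 (mm10, plus strand) and had 724, 887 and 188 counts in forskolin A, B and C and 292.5, 355.5 and 111 counts in DMSO A, B and C. This came to 75.4, 82.4 and 73.1 CPM in the forskolin libraries and 42.7, 36.0 and 37.6 CPM in the DMSO libraries. Every forskolin library was above every DMSO library, and the libraries within a group lay close together (77.0 ± 4.87 CPM with forskolin and 38.8 ± 3.47 CPM with DMSO). The log2 fold change was 0.99 ± 0.14 (SE, edgeR adjusted p = 0.0034). The call held under all 18 alternatives, with log2 fold changes of 0.94 to 1.07 and adjusted p of at most 0.0343. In the order of p over all tested genes Bmp2 was number 144. The endothelial marker sums overlapped between the groups, and the part of endothelial cells in the Bmp2 level was not tested.

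Gdf2, the gene of BMP9, the high-affinity ALK1 ligand that circulates from the liver, rose as well, on fewer counts. It lies on chromosome 14 at 33941039 to 33947198 (mm10, plus strand). The forskolin libraries A, B and C held 37.4, 36.6 and 22.4 CPM (358.5, 394 and 57.5 counts), and the DMSO libraries 12.4, 14.7 and 16.8 CPM (85, 145.5 and 49.5 counts). The lowest forskolin library and the highest DMSO library were both replicate C, and the groups did not overlap. Means were 32.1 ± 8.46 CPM with forskolin and 14.6 ± 2.19 CPM with DMSO, a log2 fold change of 1.16 ± 0.26 (adjusted p = 0.0432). The call was lost without forskolin A (adjusted p = 0.256), forskolin B (0.214), DMSO A (0.207), DMSO B (0.182) or DMSO C (0.0594), and with library sizes as the only scaling (0.077). Gdf2 stood at 1.43 without both C libraries, with an adjusted p of 5.54e-05.

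Gdf10, which encodes BMP3B, a divergent family member of the BMP3 type, is the next gene upstream of Gdf2 on the same strand (chromosome 14, 33923587 to 33936514), and 4524 bases separate them. It had 16.3, 13.2 and 12.1 CPM in forskolin A, B and C and 2.92, 8.10 and 11.4 CPM in DMSO A, B and C. The groups did not overlap, but DMSO C came within 1 CPM of forskolin C, and the DMSO libraries spread widely. The log2 fold change of 0.94 ± 0.46 did not pass the test (adjusted p = 0.471). Without both C libraries it was 1.37 (adjusted p = 0.0301), and with sample quality weights in limma-voom 1.39 (adjusted p = 0.0272). With single libraries left out, it ran from 0.54 without DMSO A (adjusted p = 0.769) to 1.31 without DMSO C (adjusted p = 0.281). Per length, Gdf2 exceeded Gdf10 in every library, with ratios of 2.87, 3.49 and 2.32 in the forskolin libraries A, B and C, against 5.32, 2.28 and 1.85 in the DMSO libraries. On the other side of Gdf2, Rbp3, a retinoid-binding protein gene of the eye, had no count in any forskolin library and counts in DMSO C only (1.19 CPM).

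Promoter sequences were taken from RefSeq (GRCm38.p6), which matched 8 of the 9 genes, all but Bmp2. Those of Gdf2, of its neighbour Gdf10 and of its close relative Bmp10 are shown because the first gene was called, the second lies beside it and had groups apart without passing, and the third had a log2 fold change near 0. Each runs over the 250 bases before the annotated start, 5′ to 3′ on the plus strand, at chr14:33940789-33941038, chr14:33923337-33923586 and chr6:87428744-87428993. Capitals mark the only match to a searched motif.
Gdf2: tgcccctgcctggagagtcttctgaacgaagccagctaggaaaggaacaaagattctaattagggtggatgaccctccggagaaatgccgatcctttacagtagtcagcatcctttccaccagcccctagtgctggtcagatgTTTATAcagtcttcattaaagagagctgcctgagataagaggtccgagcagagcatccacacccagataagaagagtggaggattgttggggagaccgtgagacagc
Gdf10: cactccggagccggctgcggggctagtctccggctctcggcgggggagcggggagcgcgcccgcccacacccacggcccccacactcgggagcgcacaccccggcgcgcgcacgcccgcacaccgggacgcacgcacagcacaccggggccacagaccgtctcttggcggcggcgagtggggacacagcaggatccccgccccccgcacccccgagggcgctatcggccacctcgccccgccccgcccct
Bmp10: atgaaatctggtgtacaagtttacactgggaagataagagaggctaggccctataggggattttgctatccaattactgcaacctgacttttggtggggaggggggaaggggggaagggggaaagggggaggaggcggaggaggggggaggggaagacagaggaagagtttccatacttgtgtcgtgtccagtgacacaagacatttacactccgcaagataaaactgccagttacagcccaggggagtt

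The motifs searched were the full cAMP response element TGACGTCA, its core TGACG, which the full element contains, and the TATA box TATAAA, on both strands and over 300 bases that include 50 bases after the start. The capitals in the Gdf2 promoter are TATAAA read on the opposite strand, beginning 107 bases before the start. None of the 8 promoters held TGACGTCA or TGACG. Over all 32851 promoters of the same length, 1.79% held TGACGTCA, 20.8% held TGACG and 13.6% held TATAAA. The 250 bases differed in composition, with 50.4% G and C in Gdf2, 52.0% in Bmp10 and 78.8% in Gdf10, against a median of 52.4% over all promoters. These matches describe letters in this window and say nothing of distal elements.

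The remaining ligands did not pass the test. Bmp10 (chromosome 6, 87428994 to 87434512, plus strand) had 262, 276 and 281 CPM in forskolin A, B and C and 300, 282 and 198 CPM in DMSO A, B and C, with DMSO C below the other 5 libraries. Its log2 fold change of 0.07 ± 0.15 (adjusted p = 0.943) was negative without DMSO C (−0.09), without both C libraries (−0.12) and with sample quality weights (−0.02). Bmp10 was also the most densely covered of the 9 genes, with up to 2.24 counts per base of deposited length.

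Bmp5, a ligand known from skeletal development in the mouse, lies on chromosome 9 at 75775365 to 75900316 (plus strand). It had 152, 140 and 101 CPM in forskolin A, B and C and 123, 110 and 80.3 CPM in DMSO A, B and C. Both groups showed the same order, with A highest and C lowest, and they overlapped through the C libraries. The log2 fold change was 0.33 ± 0.18 (adjusted p = 0.561), and without both C libraries 0.32 with an adjusted p of 0.029. It ran from 0.18 without DMSO C to 0.47 without forskolin C, and did not pass with any single library left out. A GENCODE antisense gene, Gm26903, overlaps Bmp5, and the library kit does not mark strand, so reads of the pair cannot be told apart there.

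Bmp4, a ligand of the same class as Bmp2, was low and uneven. The gene lies on chromosome 14 at 46383525 to 46390669 (minus strand). It had 6.62 and 2.97 CPM and no count in forskolin A, B and C, and 3.65, 6.03 and 18.0 CPM in DMSO A, B and C. The C libraries were the extremes of the whole set in opposite directions. The log2 fold change of −1.33 ± 0.88 (adjusted p = 0.652) became −0.47 without DMSO C, −0.86 without forskolin C and −0.04 without both C libraries, but −2.29 without forskolin A; none of these passed. Genes on the opposite strand overlap this locus too (Gm15217 and Gm15222).

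Bmp6, a main inducer of hepcidin in the liver, had the lowest mean level per length of the ligands in DMSO. Its DMSO libraries overlapped those of Gdf10, which was above Bmp6 in only 1 of them. The Bmp6 gene lies on chromosome 13 at 38345716 to 38500314 (plus strand). It had 8.49, 7.06 and 2.72 CPM in forskolin A, B and C, against 5.76 and 6.79 CPM and no count in DMSO A, B and C. No difference was detected (log2 fold change 0.49 ± 0.83, adjusted p = 0.911), and with single libraries left out the value ran from 0.02 without DMSO C to 0.97 without DMSO B. Its last exon overlaps Txndc5, a thioredoxin-domain chaperone gene on the opposite strand at 248 ± 38.8 CPM with forskolin and 232 ± 35.9 CPM with DMSO, so part of the few Bmp6 counts may be shared.

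Of the BMP modulators, Bmper was well expressed and Grem1 had almost no counts. Bmper, the homolog of the fly crossveinless-2 protein, binds BMPs outside the cell and can hold back or aid their signal. The gene lies on chromosome 9 at 23223076 to 23485215 (plus strand). It had 105, 103 and 36.9 CPM in forskolin A, B and C and 77.7, 60.5 and 36.3 CPM in DMSO A, B and C. Replicates A and B were higher with forskolin, while both C libraries lay close together and below all others. The log2 fold change of 0.50 ± 0.35 did not pass (adjusted p = 0.686). With single libraries left out, it fell short of the threshold each time, at 0.29 when DMSO C or forskolin A was omitted, 0.31 for forskolin B, 0.76 for DMSO A and 0.81 for forskolin C (lowest adjusted p = 0.113). The fit without both C libraries gave 0.59 (adjusted p = 0.00216).

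Grem1 encodes gremlin 1, a DAN-family antagonist of BMP2 and BMP4, and lies on chromosome 2 at 113748675 to 113758648 (minus strand). It had no count in any forskolin library and 2 counts, all in DMSO B, so both groups were under the floor and no fold is given. Its neighbour Fmn1, an actin-nucleating formin, was expressed, at 33.1, 51.9 and 42.4 CPM in forskolin A, B and C and at 71.0, 80.6 and 69.0 CPM in DMSO A, B and C. The groups did not overlap, but the log2 fold change of −0.80 ± 0.18 just missed the threshold (adjusted p = 0.051). Of the 18 alternatives, 10 called Fmn1 lower. Of the remaining nearest genes on either side of the 9, Ddhd1, Hmgcll1, Snrnp48, Bloc1s5 and Bbs9 were tested and passed under 0 of the 18 alternatives. Fermt1, Mir3090, Rubie, Scg3, Gkn3, Arhgap25, 4930503F20Rik, Npsr1 and Scg5 had at most 2.33 CPM in any library and were not tested.

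**Figure D4:**
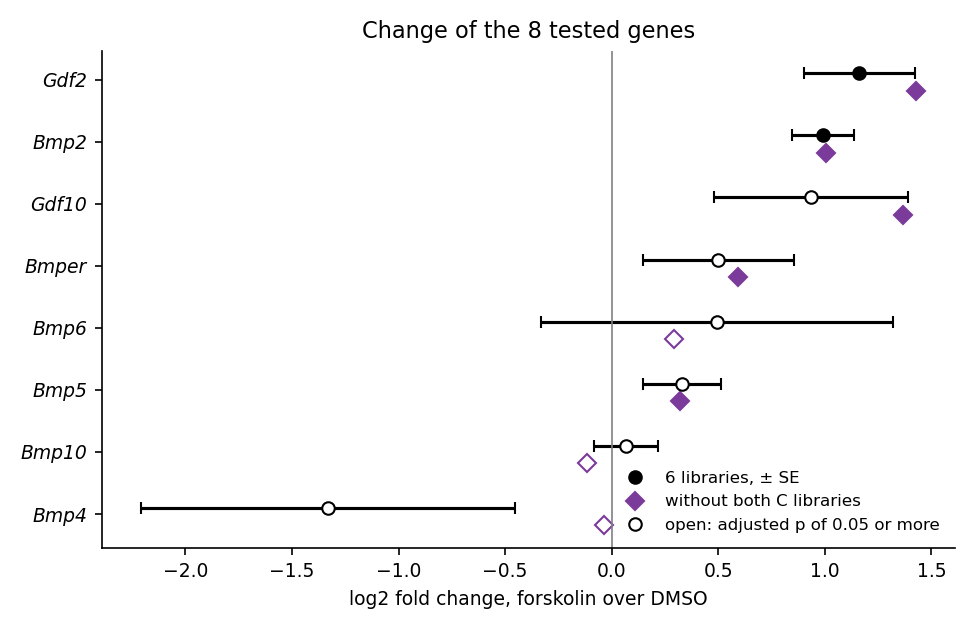
Log2 fold change, forskolin over DMSO, of the 8 tested genes; circles with SE bars are the fit of 6 libraries and diamonds the fit without both C libraries, filled where the adjusted p was under 0.05. Gdf2 and Bmp2 are filled in both fits, and Gdf10, Bmper and Bmp5 are filled in the fit without both C libraries.

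Without both C libraries, 5 of the 8 tested genes were called higher (Gdf2, Bmp2, Gdf10, Bmper and Bmp5) and 0 lower, while the calls over all genes grew too, to 738 higher and 491 lower of 12597 tested. The fit with sample quality weights called 3 of the 8 (Bmp2, Gdf2 and Gdf10), all higher, beside 598 higher and 391 lower of 12233 tested over all genes.

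Some genes followed the called ligands closely over the 6 libraries. Likeness was measured as the root mean square difference of log2 CPM, each gene centred on its own mean, among 10150 genes of at least 4 CPM. Genes picked this way share the change of the called ligand by construction. Their fold changes and calls are thus description and no further support. For Bmp2 the 3 closest were Hivep2, a zinc finger transcription factor gene (difference 0.075 on the log2 scale), Cdr2, the gene of an antigen of cerebellar degeneration (0.078), and Mnt, a MAX-binding repressor gene (0.083). Hivep2 rose by 1.04 ± 0.11 and Cdr2 by 1.01 ± 0.10 on the log2 scale, and both calls held under all 18 alternatives. Mnt rose by 0.90 ± 0.15 (adjusted p = 0.00708), a call lost without forskolin B or DMSO B (highest adjusted p = 0.0645). For Gdf2 they were Lrrc8d, a volume-regulated anion channel subunit gene (0.137), Fbxo34, an F-box protein gene (0.174), and Pitpnc1, a phosphatidylinositol transfer protein gene (0.176). Fbxo34 rose by 1.36 ± 0.21 on the log2 scale, a call that held under all 18 alternatives. Lrrc8d rose by 0.95 ± 0.17, a call lost without either A or either B library (adjusted p of at most 0.0911). Pitpnc1 was at 0.95 ± 0.29 and did not pass (adjusted p = 0.17).

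Beyond the 9 genes, 6 lists of the BMP pathway held 43 tested genes, of which 5 rose and 0 fell, and their median log2 fold change was 0.03. The share called higher was 11.6%, against 2.22% higher and 0.572% lower over all tested genes, whose median was 0.005. Of the 5 that rose, 4 were on the list of target and feedback genes. All 6 lists were chosen with earlier results of these data known, so this share is description and no test of the pathway. Of 19 other BMP, GDF and activin genes, 6 were tested and 1 rose, with a median of −0.02. This was Gdf15, a stress-induced ligand that acts on the brainstem receptor GFRAL and does not signal as a BMP. It had 301, 271 and 378 CPM in forskolin A, B and C and 171, 143 and 178 CPM in DMSO A, B and C, a log2 fold change of 0.95 ± 0.15 (adjusted p = 0.00496) that passed under all 18 alternatives. The other abundant one was Inhba, which encodes the activin A subunit, at 202 ± 23.3 CPM with forskolin and 260 ± 82.3 CPM with DMSO (log2 fold change −0.36 ± 0.21, adjusted p = 0.576). Inhba was called lower without both C libraries, at −0.51 (adjusted p = 9.56e-05). Bmp7, Bmp15, Mstn and Inhbc had no count.

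Of 18 other antagonists and modulators, 7 were tested and 0 passed by edgeR, DESeq2 or limma-voom, with 0 at an unadjusted p under 0.05 in edgeR and a median of 0.15. The most abundant were Fstl1, a follistatin-like secreted glycoprotein, at 536 ± 19.4 CPM with forskolin and 449 ± 111 CPM with DMSO, and Crim1, a membrane protein that binds BMPs, at 391 ± 78.5 CPM with forskolin and 414 ± 101 CPM with DMSO. Their log2 fold changes were 0.25 ± 0.17 and −0.08 ± 0.20. Noggin (Nog), the classical antagonist, stayed at or below 1.01 CPM in each library, a gene named after its values were seen.

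Receptors and co-receptors showed no call in the fit of 6 libraries. Of 13 with a row in the table, 10 were tested and 0 passed by edgeR, DESeq2 or limma-voom, with 0 at an unadjusted p under 0.05 in edgeR and a median of −0.11. Eng, the co-receptor of BMP9 and BMP10, was at 453 ± 14.9 CPM with forskolin and 458 ± 9.88 CPM with DMSO, and Bmpr2, the main type II receptor, at 264 ± 31.2 CPM with forskolin and 293 ± 25.8 CPM with DMSO. Their log2 fold changes were −0.02 ± 0.11 and −0.15 ± 0.12. Acvrl1, the ALK1 gene, had at most 0.651 CPM in any library and was not tested; it is named here after its values were seen. Without both C libraries 1 receptor, the activin type II receptor gene Acvr2a, was called lower (−0.39, adjusted p = 0.0143), as it was with sample quality weights.

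Among the 4 BMP SMAD genes, 3 were tested and 0 passed by edgeR, DESeq2 or limma-voom, with 1 in edgeR at an unadjusted p under 0.05 and a median of −0.21. Smad4, the common partner, was at 136 ± 18.0 CPM with forskolin and 156 ± 15.9 CPM with DMSO. Smad5 had 65.2, 74.7 and 74.2 CPM in forskolin A, B and C and 100, 106 and 81.2 CPM in DMSO A, B and C, which did not overlap (log2 fold change −0.44 ± 0.14, adjusted p = 0.192). Smad5 was called lower without both C libraries, at −0.57 (adjusted p = 0.00154), as it was with sample quality weights. Of 7 proprotein convertases and BMP1-type proteases, 6 were tested and 0 passed by edgeR, DESeq2 or limma-voom, with 0 at an unadjusted p under 0.05 in edgeR and a median of 0.19. Furin, which cleaves BMP precursors, was at 260 ± 21.0 CPM with forskolin and 256 ± 23.8 CPM with DMSO, and Bmp1, a procollagen protease that is no BMP ligand, at 64.6 ± 1.45 CPM with forskolin and 65.7 ± 4.64 CPM with DMSO.

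Target and feedback genes of the pathway held the other 4 risers. Of 12 listed, 11 were tested, 4 rose and 0 fell, with a median log2 fold change of 1.53. Over all tested genes 2.22% were called higher and 0.572% lower, and the median was 0.005. The list was chosen with earlier results of these data known. Smad6, an inhibitory SMAD gene, had 107, 92.0 and 77.0 CPM in forskolin A, B and C and 38.1, 29.2 and 26.3 CPM in DMSO A, B and C (log2 fold change 1.56 ± 0.19, adjusted p = 9.85e-04). Id3, a dominant-negative helix-loop-helix gene, had 47.2, 36.3 and 36.2 CPM with forskolin and 13.4, 13.5 and 14.7 CPM with DMSO (1.53 ± 0.21, adjusted p = 0.0026). Groups were well apart for both, as for the pseudoreceptor gene Bambi, at 106 ± 10.9 CPM with forskolin and 43.4 ± 5.38 CPM with DMSO (1.29 ± 0.15, adjusted p = 7.45e-04).

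Id2 stood at 49.8 ± 5.03 CPM with forskolin and 19.8 ± 5.69 CPM with DMSO (1.36 ± 0.23, adjusted p = 0.00892). Its call was lost without forskolin A, DMSO A or DMSO B (highest adjusted p = 0.071), whereas Smad6, Id3 and Bambi passed under all 18 alternatives. Id1 and Id4 were low, and their forskolin libraries were all above the DMSO libraries without passing (1.63 ± 0.68 and 1.60 ± 0.77). Smad7, the other inhibitory SMAD gene, was at 352 ± 41.6 CPM with forskolin and 396 ± 107 CPM with DMSO (−0.17 ± 0.18, adjusted p = 0.845). Atoh8 and Msx1 were low too and did not pass (1.55 ± 0.86 and 1.54 ± 0.80). With Id1 and Id4 they lay above the median of the list. Hey1 (0.31 ± 0.86) and the more abundant Tsc22d1 (−0.05 ± 0.15) did not pass either. Id1, Id4, Smad7, Atoh8, Msx1, Hey1 and Tsc22d1 are named after their values were seen.

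**Figure D5:**
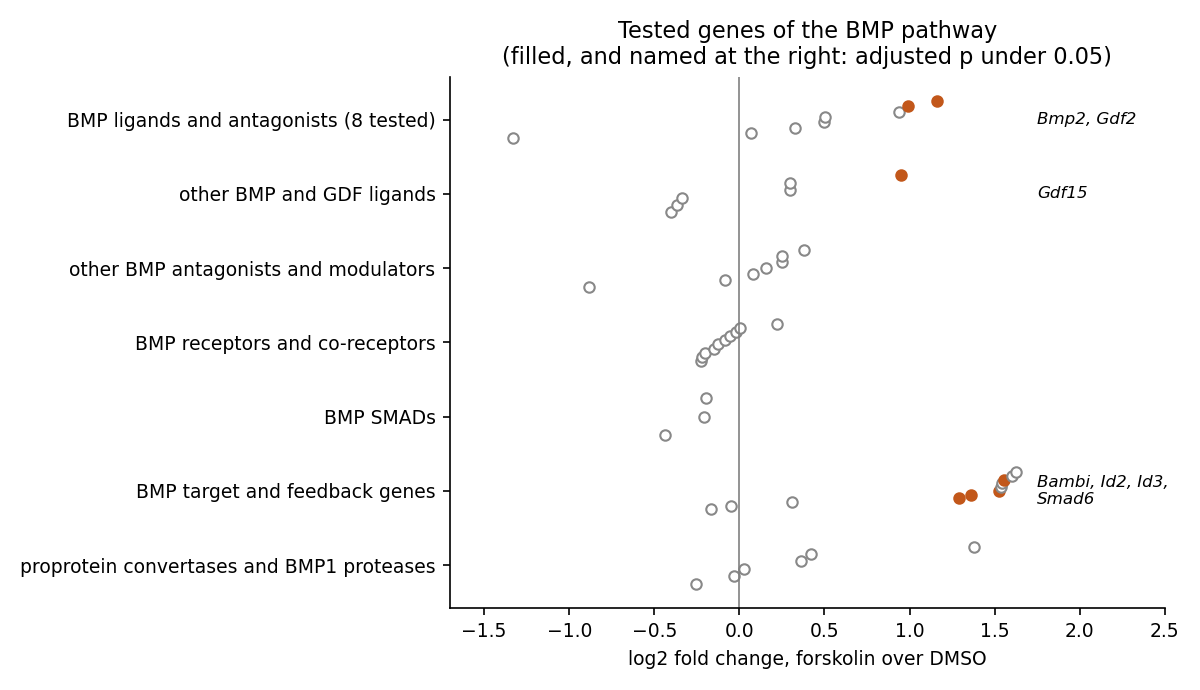
Log2 fold change, forskolin over DMSO, of every tested gene of the BMP pathway by list; filled points, named at the right, had an adjusted p under 0.05 in the fit of 6 libraries. All 7 called genes lie to the right of 0, and 4 of them are target and feedback genes.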

How the data were processed

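RNA was measured in 6 libraries of cultured stellate cells, 3 with forskolin and 3 with DMSO. Per the submitters' processing notes, STAR, the HOMER suite and the mm10 build were used; their versions, the counting rule and the handling of duplicates are not given there. The authors deposited expected counts of exon reads per gene, without adjustment. Of the values, 24.2% were not whole (steps of 0.5), so they were rounded to whole numbers (ties to even) for the test, while printed counts and CPM use the deposited values.

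Genes were filtered in edgeR 4.0.16 (R 4.3.3) by filterByExpr (12233 kept), scaled by TMM and tested by the robust quasi-likelihood F test over all 6 libraries, with Benjamini-Hochberg adjustment over all tested genes. Adjusted p-values without a named tool come from this fit. The SE is the absolute log2 fold change over the square root of F, an approximation. The test was checked on simulated counts. It recovered 57 of 102 genes with a 2-fold change (55.9%) and 82 of 92 with a 4-fold change (89.1%). It also called 8 unchanged genes. A gene that did not pass may thus still have changed by about 2-fold. Alternatives used other scaling factors, filters, DESeq2 1.42.0, limma 3.58.1 (voom), the likelihood ratio test, unrounded values, the replicate letter as a block, and fewer libraries. Counting the pathway lists' calls without single libraries and by the other tools was added after seeing the data.

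The members and the pathway and marker lists were chosen with earlier results of these data known. The lymphocyte marker list is not reported here. Named genes are the 9 members, the nearest gene on either side of each, every called pathway list gene, the 2 most abundant of a list where fewer than 2 passed, and the 3 genes nearest in pattern to each called member (log2 CPM with a prior count of 2, predicted genes left out). Gene models are the deposited ones and, for overlaps, GENCODE M21.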

Additional observations from a re-analysis of the deposited data

How the results depend on the processing

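Bmp2 kept its direction and its call under all 18 alternatives, and Gdf2 kept its direction under all 18 and its call under 12. Bmp10 reversed with sample quality weights (−0.0235) and without both C libraries (−0.12), and without single libraries it ran from −0.0943 (DMSO C left out) to 0.1845 (DMSO A left out); none of these values passed the test, and the cause was not tested. In a C library 3 counts already exceed 1 CPM, and Bmp4, Bmp6 and Grem1 each had a C library without a count; the part of depth in the missing calls was not tested.

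The 2 members called higher became 1 with library sizes alone, 1 to 2 without single libraries and 5 without both C libraries. The calls over all genes (342, of which 272 higher and 70 lower) were 620 (463 and 157) with no filter, where 18738 genes entered the test, 553 (409 and 144) by DESeq2, 989 (598 and 391) with sample quality weights, 648 (458 and 190) by the likelihood ratio test and 1229 (738 and 491) without both C libraries; limma-voom called 131 lower. Without single libraries they ran from 185 to 485 in all, from 162 to 372 higher and from 21 to 113 lower. Without both C libraries 1 gene each was called lower among other ligands, receptors and SMADs, against 0.

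With the replicate block 649 genes were called (455 higher, 194 lower), and the members called stayed at 2. The labels do not say what the letters share. Deviations from the group means correlated at 0.0476, 0.133 and 0.15 for the A, B and C pairs. Forskolin A correlated better with DMSO B (0.103) than with DMSO A, while forskolin B and C correlated best with their own letter. These weak correlations cannot settle whether the letters are pairs. The main fit left the letters out because the labels do not explain them.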
